A study of Mus musculus with 32 samples.

Results

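Glutathione S-transferases (Gst), their membrane-bound relatives (Mgst), UDP-glucuronosyltransferases (Ugt) and sulfotransferases (Sult) were followed in liver across 8 groups of mice. Members were the probe sets whose single gene symbol on the platform begins with Gst and a class letter, with Mgst, with Ugt1, Ugt2 or Ugt3, or with Sult; Sult2a2 was left out by that rule, and no intensity filter was applied. This gave 38 probe sets for 28 genes of the 12422 probe sets tested: 22 Gst probe sets for 15 genes, 5 Mgst probe sets for 3 genes, 2 Ugt probe sets for 2 genes and 9 Sult probe sets for 8 genes. A probe set that the platform assigns to 8 symbols of the Ugt1a cluster at once, and which therefore names no single gene, was not among them.

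All 32 mice were males of the B6C3F1 hybrid strain, 4 per group with 1 liver array per mouse, killed at 22 months of age after 48 hours without food and housed singly from 5 months. Control mice, CON, were kept on 93 kcal weekly of a defined diet. Mice of the long-term group, LTCR, had 52.2 kcal weekly since they were 5 months old. The CR8 mice were controls until 20 months, when 8 weeks of restriction began with 77 kcal weekly over 2 weeks and went on at 52.2 kcal weekly. Both restricted groups ate an enriched diet formula, so calories and formula cannot be told apart in them. The other groups ate the control diet for 8 weeks from 20 months with an added agent: the biguanide metformin in MET, the insulin-releasing sulfonylurea glipizide in GLIP, both of these in GM, the PPAR gamma agonist rosiglitazone in ROS, and a soy isoflavone extract in SOY. The labels used here state no doses. The comparisons ask which conjugating enzymes differ after restriction and which differ after each candidate mimetic.

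These enzymes carry out the conjugation step of drug and steroid metabolism. Glutathione transferases attach glutathione to reactive electrophiles, glucuronosyltransferases attach glucuronic acid taken from UDP-glucuronate, and sulfotransferases attach sulfate taken from the donor PAPS; export pumps then move the conjugates out of the hepatocyte. The liver is the main site of all of these reactions, and many of the genes are known targets of the factor Nrf2, which acts through antioxidant response elements, and of receptors such as Ahr, the pregnane X receptor and the constitutive androstane receptor.

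The arrays had column medians between 144.75 and 170.05 intensity units after the authors' scaling, with 164 ± 1.41 in CON, 148 ± 4.52 in GM and 151 ± 2.07 in SOY (SD, n = 4). Skeletal muscle transcripts, for which 15 of 16 listed markers were measured, lay between 2.07 and 2.86 log2 units above the median array on CON 3, CR8 1, CR8 2 and ROS 4, and 1.56 above it on SOY 3. Results that change without those first 4 arrays are given with that value. In whole liver, fewer cells of a type and less RNA per cell cannot be told apart.

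Levels below are scaled intensities, given as the lowest, the median and the highest of the 32 arrays, and they are not comparable between probe sets. Of the 38 probe sets, 30 had a mean above 94.2, the 40th percentile of all intensities, and 3 lay on all 32 arrays below 27, the 20th percentile: those named Gsta1 (160063_i_at), Mgst3 (99576_at) and Sult1a1 (162130_r_at). A residual SD of 0.26 log2 units was the median within groups for the members, against 0.27 over all probe sets.

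Among the cytosolic glutathione transferases, the mu class Gstm1 (93543_f_at), a major form in rodent liver, read 15514, 20306 and 23469.5. Gstz1 (160350_at), the maleylacetoacetate isomerase of tyrosine breakdown, read 13252, 15069 and 18103. Gstp1 (99583_at), the pi class enzyme that is abundant in male mouse liver, read 6711, 10789 and 16508. None of these 3 probe sets, described for their mean intensity, passed the threshold in any comparison. The alpha class enzyme Gsta3 (93015_at), known for detoxifying aflatoxin epoxide in mice, read 2907, 4685 and 6403. Gsta2 (101872_at), an inducible alpha class enzyme, ranged from 597 to 4361 around a median of 2551. Gsta4 (96085_at), which conjugates the lipid peroxidation product hydroxynonenal, read 188, 364 and 667. The theta class Gstt1 (95019_at) read 3000.0, 4468 and 5156, and Gstt2 (104603_at) read 1593, 2590.4 and 3598. Gstk1 (96670_at), the kappa class enzyme of mitochondria and peroxisomes, read 3112, 4162 and 5039, and Gsto1 (97819_at), the omega class enzyme with thioltransferase and dehydroascorbate reductase activity, read 1660.0, 2279 and 3183.

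Several mu class genes had more than 1 probe set. Gstm2 read 272, 782 and 4915 on 93009_at and 413, 643 and 1045 on 161357_r_at, and the highest value, 4915, belonged to a single mouse, CR8 3. Gstm3 read 2498, 4305 and 9714 on 97681_f_at and 536, 1111 and 2394 on 97682_r_at. Gstm5 had 4 probe sets, with medians of 2379 (100630_f_at), 372 (100631_r_at), 226 (100629_at) and 19.4 (161722_f_at, below 27 on 26 arrays). Gstm6 had medians of 466 (104636_at) and 455 (104637_at), and the second Gstm1 probe set (161633_r_at) had a median of 619.

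Mgst1 (93026_at), a membrane enzyme of the endoplasmic reticulum and the outer mitochondrial membrane with transferase and peroxidase activity, read 5831, 7838 and 9473. Mgst3 (96258_at) read 364, 994 and 1634, while Mgst2, which can also make leukotriene C4, had medians of 59.1 (104742_at) and 19.0 (161865_r_at). Ugt2b5 (96796_f_at) read 10842, 12499 and 14664, and Ugt2b34 (103227_at) read 2782, 3788 and 4550.5; both belong to the subfamily that glucuronidates steroids and drugs.

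Among the sulfotransferases, Sult1a1 (103087_at), the phenol sulfotransferase, read 1051, 1529 and 2003. Sult1d1 (160537_at), which acts on catecholamines, read 573, 867 and 1178. Sult1b1 (104539_at), which acts on thyroid hormones and phenols, read 378, 552 and 804. The other 5 genes of the class had medians of 129.65 for Sult5a1 (93434_at), 102 for Sult4a1 (94564_at), 70.35 for Sult2b1 (101406_at), 68.45 for Sult3a1 (99854_at) and 5.70 for Sult1c1 (96421_at, below 27 on 30 arrays). Sult3a1, an amine sulfotransferase known as female-predominant in mouse liver, ranged from 7.10 to 319.8 in these males.

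**Figure D1:**
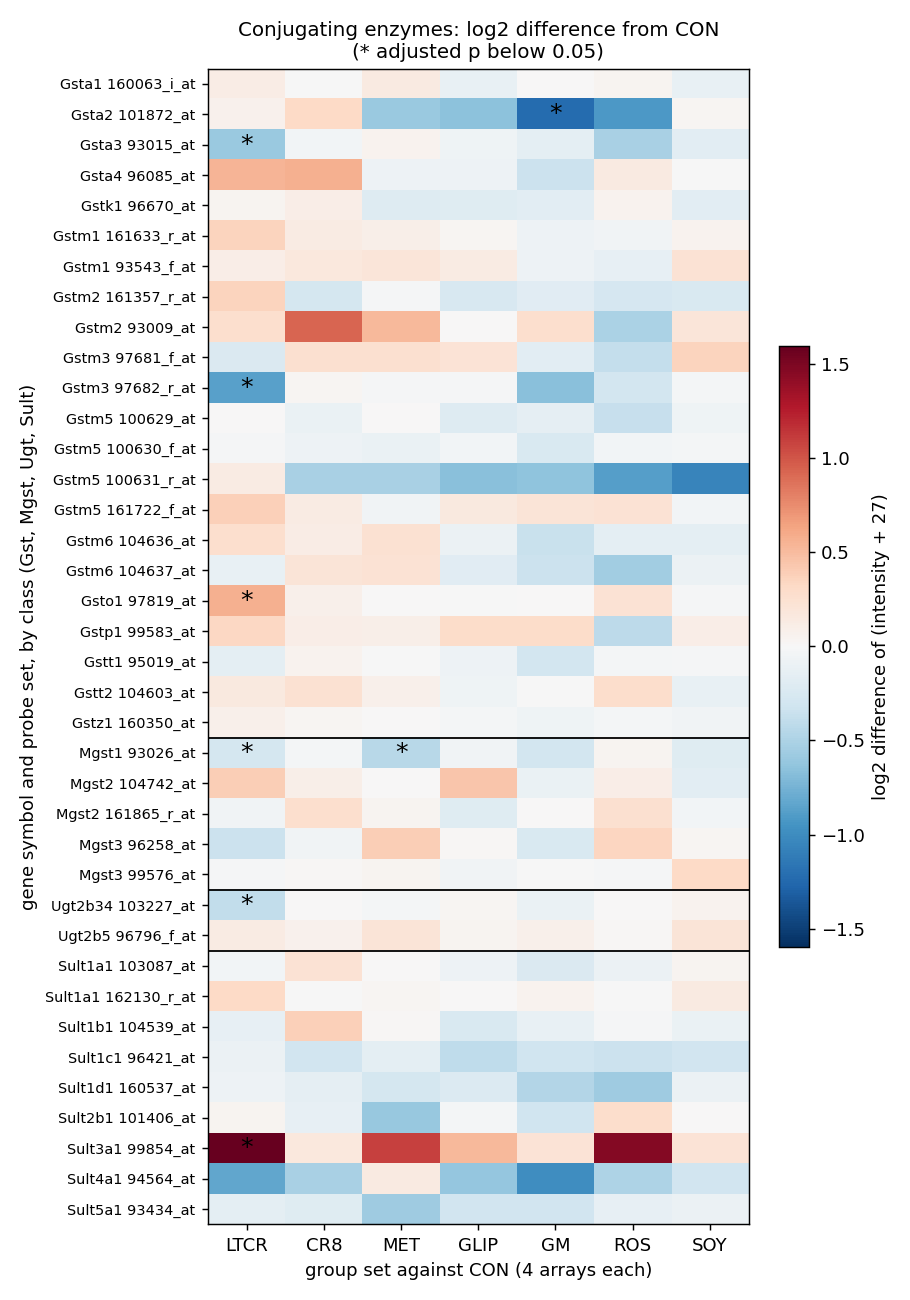
Log2 difference from CON of each of the 38 probe sets (rows, ordered by class) in the 7 other groups (columns, 4 arrays each), on the scale of log2(intensity + 27); red is higher than CON, blue is lower, and a star marks an adjusted p below 0.05. Stars lie in the LTCR column (6), the MET column (1) and the GM column (1); Sult3a1 in LTCR and Gsta2 in GM are the deepest of the starred cells.

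In long-term restriction, Gsto1 and Sult3a1 rose, and Gsta3, Gstm3 on 1 of its probe sets, Mgst1 and Ugt2b34 fell. Thus 6 of 38 members passed the threshold, a Benjamini-Hochberg adjusted p below 0.05 in limma's fit over all 12422 probe sets, 2 higher and 4 lower. Over all probe sets 10.5% passed, 4.08% higher and 6.46% lower. Among the 38 members, 7 had LTCR and CON arrays that did not overlap, or 18.4%, against 14.8% of all probe sets. The median log2 difference of the members was 0.05, against 0.02 over all probe sets. The members' share of calls, 15.8%, was near that of the array as a whole, and the members moved in both directions. With 1 array left out between 3 and 5 members passed, 3 of them without CON 3, CON 4 or LTCR 1. Under scaling to equal medians the split was 2 higher and 2 lower, and under quantile normalization 2 higher and 3 lower.

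Gsta3 was at 5153, 4658, 5759 and 4960.5 in the 4 CON mice and at 3666, 2906.5, 3846 and 3204 in the 4 LTCR mice. Every LTCR mouse was lower than every CON mouse. The log2 difference was -0.59 ± 0.13 (SE; adjusted p = 0.00218), and the call held with any 1 array left out and under every other setting tried.

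Gsto1 stood at 1938.5, 2032, 1883 and 2568 in CON and at 3183, 3160.4, 3111 and 3011 in LTCR. The LTCR mice lay close together and all above CON, with SDs of 76.3 against 314. This was a log2 difference of 0.57 ± 0.12 (adjusted p = 0.00128), and this call too held with any 1 array left out and under every setting tried.

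Ugt2b34 was at 4272, 3538, 4550.5 and 3323 in CON and at 2782, 2906, 3376.5 and 2829.7 in LTCR. The groups overlapped, since LTCR 3 lay above CON 4. Their log2 difference was -0.39 ± 0.09 (adjusted p = 0.00524). With CON 3 and the other arrays that carry muscle transcripts left out it was -0.31, with an adjusted p of 0.053. The other glucuronosyltransferase measured, Ugt2b5, differed by 0.13 ± 0.08 (adjusted p = 0.384), with means of 11616 ± 406 in CON and 12813 ± 1535 in LTCR (SD, n = 4).

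Mgst1 was at 9313, 7979, 8890.5 and 8241.5 in CON and at 5919.8, 7309, 7595 and 7699 in LTCR, without overlap. Its log2 difference was -0.28 ± 0.09 (adjusted p = 0.0387). The call was lost in 5 of 8 fits with 1 array left out, CON 1, CON 3, CON 4, LTCR 1 or LTCR 2, where the adjusted p reached 0.202, and without the muscle-bearing arrays, where it was 0.124. Under equal medians the adjusted p was 0.102.

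Sult3a1 was at 70.3, 7.1, 52.0 and 44.2 in CON and at 319.8, 178, 94.1 and 154.5 in LTCR. All LTCR mice lay above all CON mice, and CON 2 lay below the added value of 27. The log2 difference was 1.60 ± 0.51 (adjusted p = 0.0423) on a scale that understates changes at such low levels. It was lost in 6 of 8 fits with 1 array left out, CON 2, CON 3, CON 4, LTCR 1, LTCR 2 or LTCR 4, with an adjusted p of up to 0.155, and was 0.0809 without the muscle-bearing arrays.

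For Gstm3, 97682_r_at was at 1489, 809, 2102 and 1618 in CON and at 758, 999, 536 and 848.5 in LTCR, with overlap at CON 2. The log2 difference was -0.87 ± 0.28 (adjusted p = 0.0428). The call was lost in 6 of 8 fits with 1 array left out, CON 1, CON 3, CON 4, LTCR 1, LTCR 3 or LTCR 4, with an adjusted p of up to 0.172, and it was lost under quantile normalization (0.0533), under equal medians (0.0634) and without the muscle-bearing arrays, where the difference was -0.69 (adjusted p = 0.156). In a fit to LTCR and CON alone the calls of Gstm3 (adjusted p = 0.0864), Mgst1 (0.132) and Ugt2b34 (0.0673) were lost. The second probe set of the gene, 97681_f_at, differed by -0.24 ± 0.27 (adjusted p = 0.682, 95% interval -0.78 to 0.31). That interval includes 0 and overlaps the interval of 97682_r_at, -1.44 to -0.30. Whether the 2 probe sets differ from each other was not tested. Gsta4 was higher by 0.55 ± 0.25 without passing (adjusted p = 0.173).

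**Figure D2:**
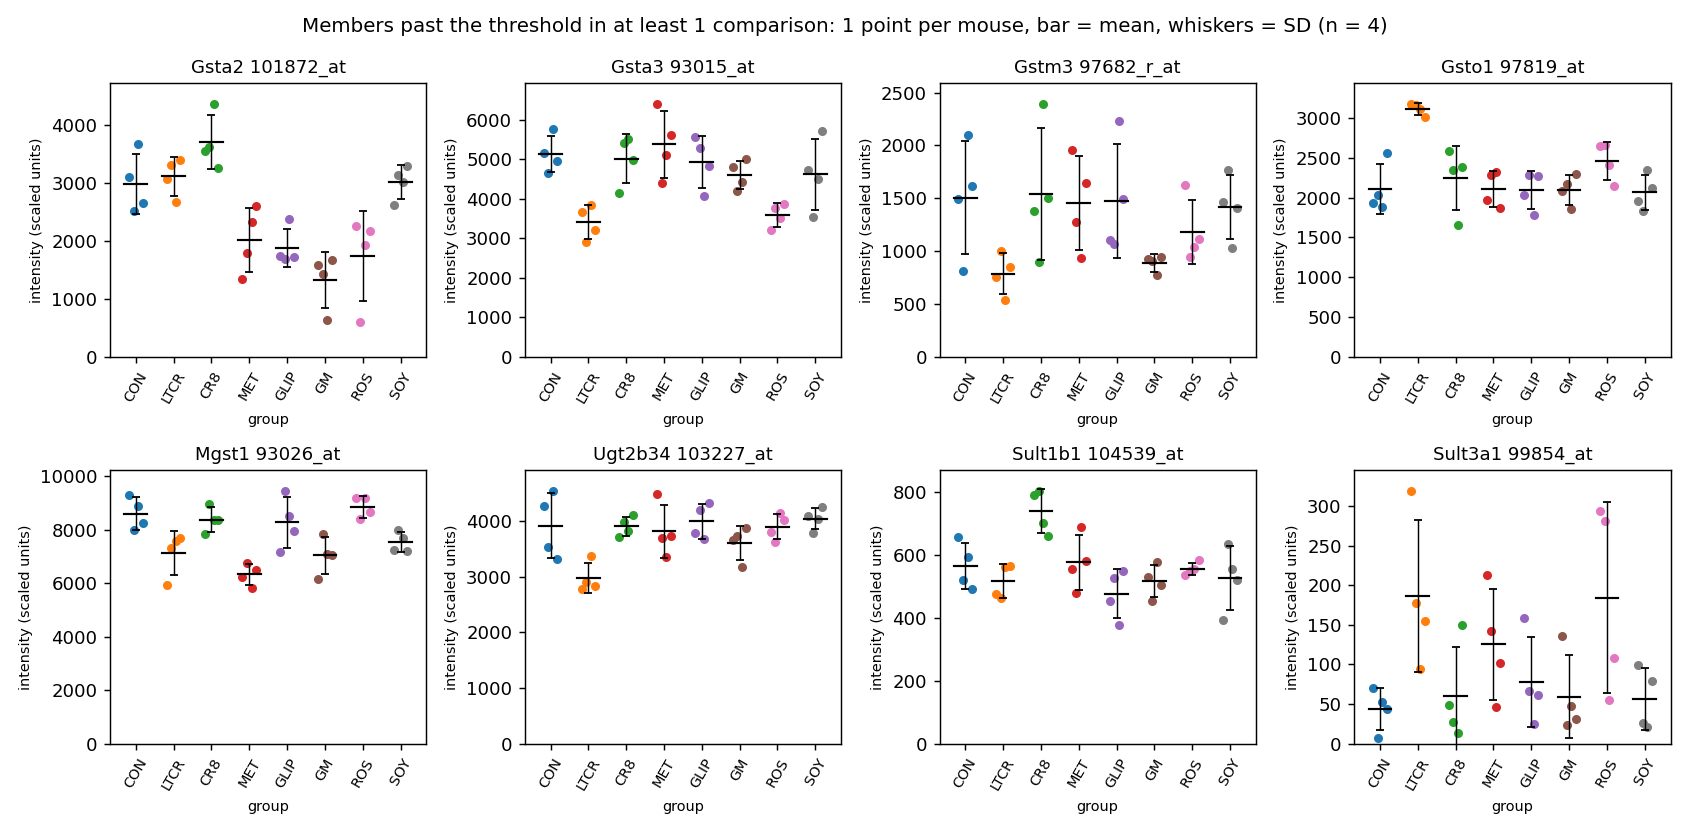
Scaled intensity (vertical axis, linear from 0) of the 8 probe sets that passed the threshold in at least 1 comparison, with 1 point per mouse in each of the 8 groups, a bar at the mean and whiskers of 1 SD (n = 4; a whisker that would reach below 0 is cut at the axis). In LTCR the 4 Gsto1 points lie between 3011 and 3183 and the 4 Gsta3 points between 2906.5 and 3846; Gsta2 is lowest in GM, with a mean of 1324 ± 476.

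The promoter windows of 4 of these genes are given because they changed in LTCR and because antioxidant response elements are the best known control sites of the family. Gstm3 and Sult3a1 were also called in LTCR, but their windows are not printed. Each is the stretch of 250 bases before the gene's start, from RefSeq on build GRCm38.p6, printed 5′ to 3′ on the gene's strand. Capitals mark any match, on either strand, to the antioxidant response element core TGACNNNGC or the Ahr core GCGTG. Gsta3 lies on the plus strand at chr1:21240335-21240584, Mgst1 (1 of its 2 listed starts) on the plus strand at chr6:138140277-138140526, Gsto1 on the plus strand at chr19:47854723-47854972 and Ugt2b34 on the minus strand at chr5:86906938-86907187.
Gsta3: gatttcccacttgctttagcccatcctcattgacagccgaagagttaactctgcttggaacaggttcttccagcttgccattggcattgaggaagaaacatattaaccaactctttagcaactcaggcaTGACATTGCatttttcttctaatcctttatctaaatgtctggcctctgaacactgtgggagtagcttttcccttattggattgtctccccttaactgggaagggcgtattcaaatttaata
Mgst1: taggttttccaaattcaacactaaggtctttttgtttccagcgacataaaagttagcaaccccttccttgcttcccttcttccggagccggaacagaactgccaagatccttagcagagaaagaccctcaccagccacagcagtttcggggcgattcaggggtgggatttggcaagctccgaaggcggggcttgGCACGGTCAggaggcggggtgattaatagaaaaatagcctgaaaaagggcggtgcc
Gsto1: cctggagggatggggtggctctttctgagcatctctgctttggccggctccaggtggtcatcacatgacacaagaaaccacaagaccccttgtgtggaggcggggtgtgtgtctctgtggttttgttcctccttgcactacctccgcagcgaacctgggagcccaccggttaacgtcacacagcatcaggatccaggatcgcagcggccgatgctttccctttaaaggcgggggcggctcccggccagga
Ugt2b34: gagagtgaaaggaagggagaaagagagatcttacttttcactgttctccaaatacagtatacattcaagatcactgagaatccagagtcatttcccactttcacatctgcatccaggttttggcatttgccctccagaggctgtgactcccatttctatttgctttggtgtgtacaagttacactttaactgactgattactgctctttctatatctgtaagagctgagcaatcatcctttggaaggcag

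The Gsta3 window holds the antioxidant response element core from -121 to -113. This Mgst1 window holds it from -56 to -48, in reverse orientation. The Gsto1 and Ugt2b34 windows and the other Mgst1 window hold neither motif. Gstm3 and Sult3a1 are not among the genes with a match to either motif. RefSeq windows were matched for 25 of the 28 genes, 32 windows in all. The antioxidant response element core lay in 3 of those 32, those of Gsta3, Gstm5 and Mgst1, and in 10.2% of all 32851 windows. The Ahr core lay in 9 of the 32, for 8 genes (Gsta2, Gstm1, Gstm5, Gstp1, Mgst3, Sult1b1, Sult1d1 and Sult2b1), and in 28.2% of all windows. In Gstm5 the motifs overlap, at -42 to -34 and -38 to -34. Such matches describe the letters of these windows and nothing more.

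In 8 weeks of restriction no member passed against CON, where 0.29% of all probe sets did. Unadjusted p-values were below 0.05 for 3 of 38 members and 8.56% of all probe sets, and the members' median difference was 0.06, against -0.02 over all probe sets. The smallest p belonged to Sult1b1, at 790.1, 804, 702 and 659 in CR8 and 655, 521, 593 and 492 in CON. Its groups did not overlap, but the log2 difference of 0.37 ± 0.13 missed the threshold (adjusted p = 0.295). The next, Gsta4, was higher by 0.57 ± 0.25 (adjusted p = 0.479), close in size to its value in LTCR, which is set against the same CON mice. For Gsta3 the CR8 difference was -0.04 ± 0.13 (95% interval -0.30 to 0.22), and for Gsto1 it was 0.08 ± 0.12 (-0.16 to 0.32).

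Long-term and 8-week restriction were then set against each other. Gsta3, Ugt2b34 and Sult1b1 were lower in LTCR and Gsto1 was higher, so that 4 of 38 members passed, 1 higher and 3 lower, against 5.9% of all probe sets, 2.34% higher and 3.56% lower. Arrays did not overlap for 9 members, or 23.7%, against 11.5% of all. Gsta3 differed by -0.55 ± 0.13 (adjusted p = 0.00792), from 4143, 5401, 5511 and 4981 in CR8. Ugt2b34 differed by -0.39 ± 0.09 (adjusted p = 0.00897), from 3711, 3978, 3817 and 4115 in CR8. Both genes were lower in every LTCR mouse than in every CR8 mouse, and both calls held under every setting and with any 1 array left out. Gsto1 differed by 0.49 ± 0.12 (adjusted p = 0.00979), from 2582, 2347, 1660.0 and 2383 in CR8; without CR8 3, the lowest mouse, the adjusted p was 0.0529, and in a fit to LTCR and CR8 alone 0.0699. Sult1b1 was at 474, 462.5, 559.7 and 563 in LTCR, all below the CR8 values above, with a difference of -0.50 ± 0.13 (adjusted p = 0.0164). That call was lost without CR8 2, LTCR 1 or LTCR 2 in turn, with an adjusted p of up to 0.0633, and without the muscle-bearing arrays, which include CR8 1 and CR8 2 (0.228). Neither LTCR (-0.13 ± 0.13) nor CR8 passed against CON for this gene.

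The Gstm2 probe sets pointed in opposite directions here: 161357_r_at differed by 0.64 ± 0.22 and 93009_at by -0.65 ± 0.44, neither past the threshold (adjusted p = 0.0906 and 0.45). For 161357_r_at the threshold was passed without the muscle-bearing arrays (1.00 ± 0.26, adjusted p = 0.0365) and without CR8 1 alone (0.79 ± 0.23, adjusted p = 0.044). The mouse CR8 3, at 4915, sets the CR8 mean of 93009_at, 1899 ± 2015.5 (SD, n = 4). Gstm3 on 97682_r_at, at -0.90 ± 0.28, narrowly missed the threshold against CR8 (adjusted p = 0.0536). It passed without the muscle-bearing arrays (-1.28 ± 0.32, adjusted p = 0.0309), with the intensity filter (0.0345) and without CR8 2 (0.0231) or LTCR 2 (0.0498). Sult3a1, at 1.43 ± 0.51 (adjusted p = 0.101), passed with the replicate block (0.0242) and without CR8 4 (1.86 ± 0.52, adjusted p = 0.0395).

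In the metformin group 1 member of 38 passed, Mgst1, which fell; over all probe sets 1.69% passed, and 1.02% passed as lower. Mgst1 was at 6222, 6774, 5831 and 6502 in MET, below all 4 CON mice, whose lowest was 7979. The log2 difference was -0.44 ± 0.09 (adjusted p = 0.0102), and the call held with any 1 array left out; in a fit to MET and CON alone the adjusted p was 0.0927. Arrays did not overlap for 3 members, or 7.89%, against 7.27% of all: Mgst1, Sult5a1 (-0.56 ± 0.24, adjusted p = 0.27) and Ugt2b5 (0.21 ± 0.08, adjusted p = 0.243).

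With glipizide no member passed, and 0.0483% of all probe sets did. By unadjusted p, 1 member of 38 and 7.58% of all probe sets lay below 0.05. This was Gsta2, at 1735, 1681, 2373 and 1725 in GLIP and 3096, 2510.4, 3665 and 2656 in CON. Every GLIP mouse was below every CON mouse, and the difference was -0.66 ± 0.29 (adjusted p = 0.604). Mgst2 (104742_at) came next, at 0.44 ± 0.22 (adjusted p = 0.663), from 54.2 ± 6.38 in CON to 84.5 ± 20.4 in GLIP.

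In the mice given both drugs, Gsta2 was lower, the 1 member of 38 that passed, where 0.459% of all probe sets did, 0.153% as lower. Its GM values were 1577, 1428, 625 and 1664, all below CON, and GM 3 stood far below the other 3. The fit gave a log2 difference of -1.23 ± 0.29 (adjusted p = 0.049). This call sits at the threshold: leaving out any 1 of the 8 arrays gave an adjusted p between 0.0542 and 0.122, and without GM 3 the difference was -0.91. Without the muscle-bearing arrays it was -1.13 (adjusted p = 0.123), and in a fit to GM and CON alone the adjusted p was 0.142. In MET alone the Gsta2 difference was -0.59 ± 0.29 (adjusted p = 0.379). The interaction, the effect of glipizide on top of metformin minus its effect alone, was 0.02 ± 0.41 for Gsta2 (95% interval -0.83 to 0.86).

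Over the members as a whole the GM median was -0.16, with 9 of 38 above 0, or 23.7%, against -0.07 and 38.2% over all probe sets. Scaling to equal medians moved the members' median to -0.02, with 16 of 38 above 0, and that of all probe sets to 0.03, with 55.6% above 0. Under quantile normalization the members' median was -0.17, with 9 of 38 above 0. All probe sets then had a median of 0.002, with 50.3% above 0. With the intensity filter the members' median was -0.18, with 5 of 30 above 0, against -0.05 and 41.6% over all probe sets. Arrays did not overlap for 5 members, or 13.2%, against 8.43% of all: Gsta2, Mgst1 (-0.29 ± 0.09, adjusted p = 0.116), Gstm5 on 100630_f_at (-0.24 ± 0.07, adjusted p = 0.109), Sult1a1 (-0.24 ± 0.12, adjusted p = 0.376) and Sult4a1 (-0.99 ± 0.40, adjusted p = 0.259). All 5 were lower in GM. No member passed in the interaction, where 0.0242% of all probe sets did; 2 of 38 members and 7.2% of all had an unadjusted p below 0.05. The smallest p there was that of Gstm1 (93543_f_at), at -0.40 ± 0.13 (adjusted p = 0.41), with means of 19127 ± 3018 in CON, 21715 ± 1536 in MET, 20725 ± 1414 in GLIP and 17993 ± 1847 in GM (SD, n = 4). The next, Gstm6 (104636_at), was at -0.50 ± 0.22 (adjusted p = 0.65).

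Rosiglitazone gave no member past the threshold, and 0.0725% of all probe sets passed; unadjusted p-values were below 0.05 for 6 of 38 members and 6.97% of all. Arrays did not overlap for 4 members, or 10.5%, against 4.09% of all, and each of the 4 was lower in ROS. Gsta3 was at 3206, 3769.9, 3503 and 3859 in ROS, below the lowest CON mouse at 4658. Its difference was -0.51 ± 0.13, with an unadjusted p of 0.000393 and an adjusted p of 0.16. Sult1d1 was at 776, 688, 633 and 573 in ROS and 1015, 816, 1178 and 1003 in CON, a difference of -0.57 ± 0.16 (adjusted p = 0.272). Gsta2 differed by -0.92 ± 0.29 (adjusted p = 0.357), with ROS 2 at 597 and the other ROS mice between 1919.7 and 2260.0. Sult3a1 was higher by 1.47 ± 0.51 (unadjusted p = 0.00782, adjusted p = 0.473), with ROS mice at 293.5, 282, 54.7 and 108 and an overlap with CON, whose highest mouse was at 70.3. Gstp1 differed by -0.42 ± 0.16 (adjusted p = 0.528), from 10186 ± 687 in CON to 7605 ± 600 in ROS (SD, n = 4). ROS 4, the array with the most muscle transcript, was not the lowest ROS mouse for Gsta3, Gsta2 or Gstp1, and was the lowest for Sult1d1. CON 3, which also carries muscle transcripts, was the highest CON mouse for Gsta3 (5758.6), Gsta2 (3665) and Sult1d1 (1177.7), but not for Gstp1. No member passed without the muscle-bearing arrays either. The part of muscle transcripts in these differences was not tested.

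Soy isoflavones gave no member past the threshold, as 0% of all probe sets passed. Unadjusted p-values were below 0.05 for 4 of 38 members and 7.27% of all probe sets. Arrays did not overlap for 3 members, or 7.89%, against 4.65% of all. Mgst1 was among them, between 7207.6 and 7977.6 in SOY, just below the lowest CON mouse at 7979. The smallest p fell on Mgst3 at 99576_at, whose arrays all lay below 27 and which therefore has no fold. Gstm1 (93543_f_at) was next, at 0.23 ± 0.09 (adjusted p = 0.609), and Ugt2b5 was higher by 0.20 ± 0.08 (adjusted p = 0.622) with SOY mice at 14664, 13222, 12356 and 13311 above all CON mice, which reached 12101.

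Where a gene has more than 1 probe set, the pairs were set against each other as deviations from their group means over the 32 arrays, for the 7 pairs whose probe sets both read above 94.2 on average. The 2 probe sets of Gstm3 moved together from mouse to mouse (Pearson r = 0.83, Spearman rho = 0.82), and so did those of Gstm6 (r = 0.80, rho = 0.81). For both genes the permutation p within groups was 1e-05, the smallest that 100000 permutations can give, and 3.5e-05 after adjustment over the 7 pairs; without the 2 farthest arrays r was 0.79 and 0.78. For Gstm1 r was 0.43 (permutation p = 0.0465, adjusted 0.108) and rho 0.40, and for Gstm2 r was -0.33 (permutation p = 0.143, adjusted 0.25) and rho -0.35. The 3 Gstm5 pairs had r between -0.085 and -0.0030. Without the 2 farthest arrays of each pair, r was 0.32 for Gstm1, -0.47 for Gstm2 and between -0.12 and 0.23 for the Gstm5 pairs. The points of a pair share the array and its scaling, and probe sets with the suffix f or r can take signal from related mu class transcripts.

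**Figure D3:**
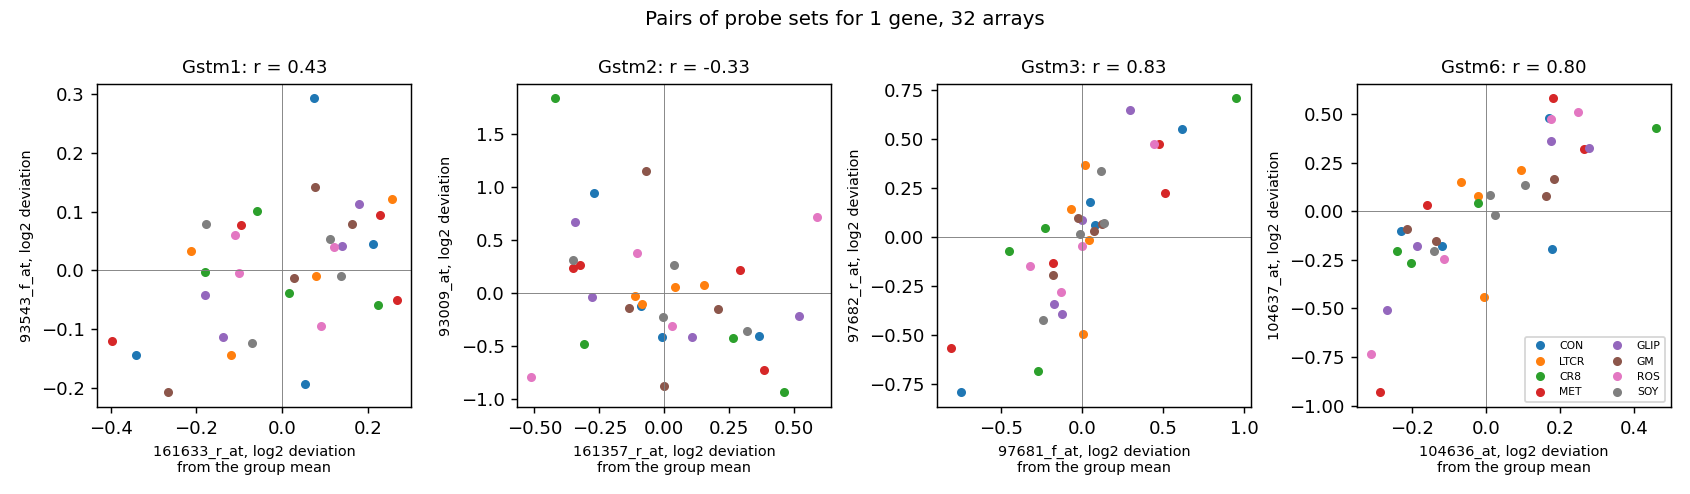
Deviation of 1 probe set from its group mean (horizontal axis, log2 units) against that of the second probe set of the same gene (vertical axis, log2 units) for Gstm1, Gstm2, Gstm3 and Gstm6; each point is 1 of 32 arrays, coloured by group. Points follow a line for Gstm3 (r = 0.83) and Gstm6 (r = 0.80), scatter more for Gstm1 (r = 0.43) and tend the other way for Gstm2 (r = -0.33).

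The genes that supply and serve these enzymes were counted from lists, each gene by its brightest probe set. The counts stand beside 10.5% of all probe sets called in LTCR against CON, 4.08% higher and 6.46% lower. In LTCR against CR8 that share was 5.9%, 2.34% higher and 3.56% lower. The supply lists also hold genes that do not make or carry the donor, such as Gusb, Slc35a1, Sts, Ggt1 and Chac1, and not every listed gene was measured. Their counts and medians therefore describe the lists and not the supply of the donor alone. In LTCR against CON, of 7 measured genes of 8 on the UDP-glucuronate list, 2 fell and none rose. The list median was -0.41 against 0.02 over all probe sets. Ugp2, which makes UDP-glucose, differed by -0.78 ± 0.10 (1384 ± 50.3 in CON, 799 ± 97.4 in LTCR; adjusted p = 5.1e-06). Slc35d1, a transporter of UDP-glucuronate into the endoplasmic reticulum, differed by -0.54 ± 0.08 (adjusted p = 3.83e-05). Both were also lower in LTCR than in CR8, by -0.64 ± 0.10 (adjusted p = 0.00019) and -0.53 ± 0.08 (adjusted p = 0.000144).

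For sulfate, 7 of 11 listed genes were measured with a median of -0.23, and 1 fell, Slc35b2, the Golgi transporter of PAPS (-0.23 ± 0.07, adjusted p = 0.0371). In LTCR against CR8 it again was the 1 gene of the list that passed (-0.33 ± 0.07, adjusted p = 0.00634). For glutathione, 9 of 14 were measured, with a median of 0.27, and 2 rose, Gnmt (0.34 ± 0.10, adjusted p = 0.0211) and Ahcy (0.30 ± 0.09, adjusted p = 0.032), enzymes of the methionine cycle. Against CR8 the list had 1 call, the glutamate-cysteine ligase modifier subunit Gclm (-0.26 ± 0.08, adjusted p = 0.047). Against CON the calls of the sulfate and glutathione lists went in opposite directions.

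Of 19 measured Nrf2 targets outside the members, of 23 listed, 1 rose and 1 fell in LTCR: the carbonyl reductase Cbr1 (0.99 ± 0.15, adjusted p = 6.45e-05) and the epoxide hydrolase Ephx1 (-0.92 ± 0.16, adjusted p = 0.00019). The median of that list was -0.05. Of 21 measured receptors and liver factors of 23 listed, with a median of -0.07, 3 rose, Hnf4a (0.98 ± 0.18), Rxra (0.39 ± 0.10) and Cebpa (0.39 ± 0.10), and 2 fell, Pparg (-1.36 ± 0.27) and Ahr (-0.58 ± 0.15). In LTCR against CR8, 2 of the 21 were higher, Hnf4a (1.11 ± 0.18) and Rxra (0.43 ± 0.10), and 3 were lower, Ahr (-0.97 ± 0.15), Pparg (-1.01 ± 0.27) and Nfe2l2, the gene of Nrf2 (-0.54 ± 0.11, adjusted p = 0.00192). The Nrf2 target list had a median of -0.04 in that comparison, with 9 of 19 above 0. Of its genes, Cbr1 was called higher (0.50 ± 0.15, adjusted p = 0.0487) and Gclm, given above, lower. Against CON, of 8 measured exporters of 10 listed (median -0.04), 1 fell, Abcg2 (-0.76 ± 0.18, adjusted p = 0.0041). Of 9 measured other conjugating enzymes of 14 listed (median -0.20), 2 fell against CON, Ephx1 again and the acetyltransferase Nat1 (-0.68 ± 0.20, adjusted p = 0.0237). Against CR8 that last list had 1 call, the methyltransferase Gamt (-0.50 ± 0.11, adjusted p = 0.00638).

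The drug groups had calls in these lists in MET and GLIP, where 1.69% and 0.0483% of all probe sets passed. In MET, Rxra (0.41 ± 0.10), Cebpa (0.47 ± 0.10) and the creatine-forming methyltransferase Gamt (0.51 ± 0.11) rose and catalase, Cat, fell (-0.46 ± 0.10). In GLIP the thiopurine methyltransferase Tpmt fell (-0.55 ± 0.10, adjusted p = 0.0274). None of the 7 lists had a call in CR8, GM, ROS or SOY against CON.

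Some markers of liver cell types also differed between LTCR and CON, where 10.5% of all probe sets passed. The hepatocyte list, 7 of 8 measured, summed to between 115871 and 131190 in CON and between 140093 and 166388 in LTCR. In it 3 genes were called higher (Apoa1, Cps1 and Tat) and Ttr lower. Its median was 0.28, with only 4 of the 7 genes above 0, so the sum does not stand for each gene. The Kupffer cell list, 10 of 11 measured, summed to between 3398 and 4553 in CON and between 2075 and 3029 in LTCR, with 1 call, Mpeg1, and with Marco below 27 on all arrays of both groups. The cholangiocyte list, 5 of 6 measured, summed to between 4594 and 5931.5 in CON and between 2184 and 2637 in LTCR. That sum is nearly all Krt8 (-1.17 ± 0.16) and Krt18 (-1.02 ± 0.17), which hepatocytes also express and which were called lower. The other 3 genes, Krt19, Krt7 and Epcam, summed to between 50.2 and 81.1 in CON and between 41.6 and 94.1 in LTCR with no call, and Krt19 was below 27 on all CON arrays. Col1a2, of the stellate cell list, was higher (0.37 ± 0.10, adjusted p = 0.0186). That list, 7 of 8 measured, had a median of -0.21, with 3 of the 7 above 0. Alas2, of the erythroid list, was lower (-0.82 ± 0.22, adjusted p = 0.0143). The erythroid list, 3 of 5 measured, had a median of -0.27, with 1 of the 3 above 0.

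In MET, where Mgst1 fell, Krt18 was lower (-0.93 ± 0.17, adjusted p = 0.00503), the 1 call among the markers. The hepatocyte list summed to between 139302 and 149566 there and the Kupffer cell list to between 3701 and 5764. In CR8 Krt8 was lower (-0.70 ± 0.16, adjusted p = 0.0476). Of the 5 measured genes of the cholangiocyte list, 2 were above 0 there without passing. These were Krt19 (0.84 ± 0.28, adjusted p = 0.276) and Krt7 (0.13 ± 0.21, adjusted p = 0.941). The part of these cell markers in the differences of the conjugating enzymes was not tested.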

How the data were processed

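Liver RNA of 32 mice, 4 in each of 8 groups named in the sample titles, was measured on 1 Affymetrix array per mouse. The authors deposited 1 linear intensity per probe set and array, already scaled: the mean without the top and bottom 2% of a column lay between 500.382 and 500.468. Software, background correction, detection calls and scan batches are not given in the sources used here. Control probe sets (66 of 12488) were left out, and symbols come from the platform annotation.

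To each intensity 27, the 20th percentile of the table, was added before taking log2, which understates changes of dim genes. limma 3.58.1 in R 4.3.3 fitted the 8 groups together (eBayes with trend, 24 residual and 4.37 prior degrees of freedom) over 12422 probe sets, with Benjamini-Hochberg adjustment at 0.05 within each of 9 comparisons. The 7 comparisons with CON share its 4 arrays. Errors of log2 differences are SEs, and 4 arrays per group limit the precision. The procedure was tested on simulated data.

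Described in full were members past the threshold in any comparison, the 3 brightest of each class and, where none passed, the 2 with the smallest p; list genes are those with the smallest p, at most 3 per list and comparison, and others that passed. Members and lists were chosen with earlier results of these data known. Alternatives were an intensity filter, quantile normalization, equal medians, added values of 1 or 94.2, a fit without the other groups, a block for the replicate number, probe sets with the plain suffix, leaving out the muscle-bearing arrays (over 2 log2 units above the median array) and leaving out each array.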

Additional observations from a re-analysis of the deposited data

Results flagged for a closer look

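In 9 of 152 group readings (19 described probe sets in 8 groups of 4), 1 mouse lay further from the other 3 than Dixon's 95% limit allows; chance flags about 1 in 20 groups. For Gsta2, GLIP 3 read 2372.9 while the other GLIP mice lay between 1681 and 1735, GM 3 read 625 against 1428 to 1664, and ROS 2 read 596.6 against 1919.7 to 2260.0. For Gstp1, LTCR 1 read 9950.8 against 13677 to 14230.5, GLIP 1 read 10460.7 against 12974 to 13502, and ROS 2 read 6711.2 against 7843 to 7992. GM 3 also stood low for Mgst3 (96258_at), at 364 against 1028 to 1169, and LTCR 1 for Gsta4, at 334.4 against 569.9 to 579.8. For Mgst2 (104742_at), SOY 4 read 19 against 51.6 to 59.6.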

How the results depend on the processing

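Gsta3 and Gsto1 in LTCR against CON, and Gsta3 and Ugt2b34 in LTCR against CR8, passed under every alternative run, and no called value changed sign. The 6 calls in LTCR against CON became 3 in the fit to the groups compared and 2 without the muscle-bearing arrays, and 3 to 5 with 1 array left out. The 1 call in MET against CON became 0 in the fit to the groups compared and stayed 1 with 1 array left out. The 1 call in GM against CON, Gsta2, became 0 under quantile normalization, in the fit to the groups compared, with the replicate block, without the muscle-bearing arrays and in each fit with 1 array left out (0 to 0); its adjusted p was 0.0512 under quantile normalization.

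Same-numbered arrays did not deviate together (median r = -0.01 over 112 pairs, against -0.0014 over 336 pairs of different number). What the numbers stand for is not given in the sources used here. With the replicate block the Gsta2 call had an adjusted p of 0.0687, and LTCR against CR8 had 5 calls in place of 4.

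Over all probe sets the calls for GM against CON were 57, or 315 under equal medians, 116 with the intensity filter and 4 in the fit to the groups compared. That fit gave 2 calls for MET (210 in the 8-group fit), 12 for CR8 (36), 4 for ROS (9), 308 for LTCR against CR8 (733) and 0 for the interaction (3), and GLIP had 0 to 10 (6). With 1 array left out the ranges were 54 to 148 for MET, 6 to 61 for GM, 13 to 52 for CR8, 4 to 9 for ROS, 0 to 11 for GLIP, 0 to 10 for the interaction and 458 to 780 for LTCR against CR8. With 4 mice a group, differences of the size of Gsta2 in ROS or MET did not pass, and dim members such as Sult3a1 rest on readings near the added value.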
